A study of Mus musculus with 4 samples.

Results

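Small leucine-rich proteoglycans (SLRPs) are secreted matrix proteins whose core of leucine-rich repeats binds collagen fibrils, and most of them carry chondroitin, dermatan or keratan sulphate chains. Decorin (Dcn), biglycan (Bgn) and asporin (Aspn) resemble each other in sequence, as do lumican (Lum), fibromodulin (Fmod) and PRELP (Prelp), while osteoglycin (Ogn, also called mimecan) belongs to a separate class. In arteries SLRPs set the spacing and thickness of collagen fibrils, hold growth factors such as TGF-beta in the matrix, and, in the case of biglycan, bind lipoproteins in the diseased intima. The 7 genes Lum, Dcn, Fmod, Bgn, Ogn, Prelp and Aspn were taken by name. All 7 were present among the 31765 genes of each plaque library and among the 26391 genes of the wild type control and the 27696 genes of the SM22a-TRF2T188A ligation library.

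Single-cell RNA of C57Bl/6 mice (C57Bl6/J in the paper's methods) was counted in 4 libraries, 1 for each genotype of 2 experiments. The plaque libraries came from lesions of the aortic root, aortic arch and carotid arteries of ApoE-/- mice (Myh11-CreERt2/Confetti/ApoE-/-) and of Trf2T188A/ApoE-/- mice (Myh11-CreERt2/Confetti/Sm22a-Trf2T188A/ApoE-/-). Both of these groups therefore lacked ApoE and carried an inducible Cre and a Confetti colour reporter for smooth muscle cells. They were male, were given tamoxifen from week 6, and were fed a high fat diet for 14 weeks. The ligation libraries came from male wild type control and SM22a-TRF2T188A mice of 4 to 5 months, 28 days after a carotid artery was tied off, with the adventitia and the parts that had not remodelled removed. In both mutants a minimal Sm22a promoter, active in smooth muscle cells, drove mutant TRF2, a form of a protein that caps telomeres. The labels do not give the number of mice behind a library. With 1 library for each group no difference between genotypes could be tested, so all differences are given as values, and their 95% intervals cover counting error only.

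Depth differed between the experiments. The ApoE-/- library held 1502 cells and 37869934 UMIs (unique molecular identifiers, 1 for each RNA molecule captured), with a median of 22765.5 UMIs per cell. For the Trf2T188A/ApoE-/- library these were 929 cells, 24064570 UMIs and a median of 24377. The authors' filter on genes per cell was lower for Trf2T188A/ApoE-/-, where the fewest genes in a cell were 1056, against 1531 in ApoE-/-. In ligation the wild type control held 4967 cells, 47713453 UMIs and a median of 8631, against 5392 cells, 67426588 UMIs and a median of 11153 in SM22a-TRF2T188A. Levels below are mean UMIs per 10000 UMIs of a cell, averaged over the cells of a class. The assay counts the 3′ end of a molecule once whatever its length, so levels of different genes are compared as molecules.

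Cells were sorted into classes with the SLRP genes and their partner genes left out of the clustering, and each class was named for the cluster of the study whose marker genes it carried. In plaque, 3 clusters high in smooth muscle contractile genes (Cluster 0-like, Cluster 1-like and a further contractile cluster) were pooled as contractile cells, 720 in ApoE-/- and 326 in Trf2T188A/ApoE-/-. Cluster 1-like cells made up 275 of the former and 100 of the latter, and Cluster 0-like cells 269 and 128. The other large plaque classes were Cluster 3-like (225 and 163 cells, led by the metallothioneins Mt1 and Mt2), Cluster 2-like (157 and 129, led by Timp1, Spp1 and Thbs1), Cluster 4-like (108 and 79, led by the complement gene C3 and by Cp and Lcn2) and Cluster 8-like (81 and 64, led by the cartilage and bone genes Col2a1, Ibsp and Cytl1). Ligation classes were Cluster 0-like (1651 wild type control and 2366 SM22a-TRF2T188A cells, led by Sparcl1 and Tcap), Cluster 1-like (2035 and 1887, led by Igfbp2 and Eln), Cluster 2-like (1081 and 947, led by Gdf10 and Spp1 beside Lum and Dcn), the interferon-responsive Cluster 3-like (119 and 70), endothelial-like (62 and 65) and immune-like cells (19 and 57).

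The libraries were checked against their labels first. Terf2, which encodes TRF2, was at 0.189 in ApoE-/-, 0.180 in Trf2T188A/ApoE-/-, 0.180 in wild type control and 0.164 in SM22a-TRF2T188A cells. No excess in the mutants was seen, but a transgene with another 3′ end need not be counted under Terf2, so this says little about the transgene. All 4 libraries were male by their sex-linked genes, which matters for the X-linked Bgn: the Y-linked Ddx3y was at 1.03, 1, 1.04 and 1.05, and Xist, the RNA of the silenced X chromosome, had 2, 0, 7 and 13 UMIs. The ligation libraries shared 10 cell barcodes, the plaque libraries 0, and any plaque and ligation library at most 2. A UMI of the Confetti reporter was found in 83.6% of ApoE-/- and 85.4% of Trf2T188A/ApoE-/- cells.

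RNA released from broken cells also reaches droplets of cells that do not make it. Immune-like ligation cells, which should lack SLRPs, gave a measure of this after all cells were thinned to 5000 UMIs. Lum was found in 7.14% of the wild type control immune-like cells and 17.4% of those of SM22a-TRF2T188A (95% Clopper-Pearson interval 7.82 to 31.4%), and Dcn in 0% and 10.9%. Bgn, the most abundant of the 7 genes, reached 35.7% and 50%. The median depth of these cells was 6201 and 8403 UMIs before thinning, against 8506 and 11414 for Cluster 0-like cells. In SM22a-TRF2T188A, 5 of the 57 immune-like cells held 82.3% of the Lum level, so this signal was not spread evenly. The plaque libraries held no class that should lack all 7 genes, so no such share can be given there. Of its 5 large classes contractile cells were the lowest for Lum and Dcn.

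Biglycan, a chondroitin or dermatan sulphate proteoglycan, was the broadest of the 7 in plaque. It was found in every thinned contractile, Cluster 2-like, Cluster 3-like, Cluster 4-like and Cluster 8-like cell of both libraries. Its level was lowest among these in contractile cells, at 30.7 in ApoE-/- and 33.7 in Trf2T188A/ApoE-/-, and highest in Cluster 4-like cells of ApoE-/- (57.1) and Cluster 8-like cells of Trf2T188A/ApoE-/- (54.0). The counting intervals of those Cluster 8-like cells (52.6 to 55.4) and of the Cluster 4-like cells of the same library (52.6 to 54.6) overlapped. Among the smaller classes it was at 43.3 and 53.1 in Cluster 10-like cells (42 and 41 cells, led by Adamtsl1 and Rgs5), but at 21.5 and 22.4 in the shallow Cluster 5-like cells (80 and 100 cells).

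Asporin, which binds collagen and TGF-beta and lacks glycosaminoglycan chains, was scarce, at 1.07 and 1.21 over all plaque cells. In the 5 large plaque classes it lay between 0.822 and 1.43 in ApoE-/- and between 1.13 and 1.83 in Trf2T188A/ApoE-/-. Of the classes with at least 10 cells in both libraries it was highest in Cluster 11-like cells (55 and 26 cells, led by Crip1, Sncg and Pln), at 2.21 and 2.35, and lowest in Cluster 10-like cells, at 0.156 and 0.0376. These last levels rested on 7 and 5 UMIs.

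Osteoglycin, found in the matrix of bone and vessels, was highest in contractile cells among the 5 large plaque classes, at 9.99 in ApoE-/- and 8.90 in Trf2T188A/ApoE-/-, and after thinning to 8000 UMIs 97% and 96.6% of them had a UMI. Cluster 2-like cells were the lowest, at 1.34 and 1.57, with a UMI in 38.2% and 39.8%. Cluster 8-like cells were low too, at 2.57 and 2.14, while Cluster 4-like cells had 7.15 and 5.32 and Cluster 3-like cells 5.22 and 5.61. Within the contractile cells Ogn was highest in the further contractile cluster (12.2 and 10.6), whose leading genes included it.

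PRELP, which links collagen to basement membranes, lay between 3.26 and 8.76 in the 5 large classes of ApoE-/-, with Cluster 4-like cells highest and contractile cells lowest. In Trf2T188A/ApoE-/- the range was 3.33 to 9.14, and Cluster 8-like cells were highest. Fibromodulin, a keratan sulphate proteoglycan that shares a collagen-binding site with lumican, was the most restricted. It was at 17.9 and 16.4 in Cluster 8-like cells, where 98.7% and 94.8% of thinned cells had a UMI. Cluster 2-like cells followed at 2.71 and 3.65, then Cluster 4-like cells at 0.857 and 0.610. Contractile cells were lowest of the 5 classes in ApoE-/- (0.0332, 44 UMIs) and held 0.158 (50 UMIs) in Trf2T188A/ApoE-/-, where Cluster 3-like cells were lowest (0.0521 and 0.0384). None was found in the 21 Cluster 12-like cells of ApoE-/-.

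Lumican, a keratan sulphate proteoglycan, and decorin, a dermatan sulphate proteoglycan, spanned the widest ranges of level beside fibromodulin. Of the 3 contractile clusters Lum was lowest in Cluster 0-like cells (0.280 in ApoE-/-, 0.478 in Trf2T188A/ApoE-/-), and it was at 0.4 and 1.27 over all contractile cells. Cluster 3-like cells held 8.23 and 12.5, and Cluster 8-like cells 30.5 and 49.7. The highest class was Cluster 4-like in ApoE-/- (63.3, against 44.2 in Cluster 2-like) and Cluster 2-like in Trf2T188A/ApoE-/- (75.1, against 66.2 in Cluster 4-like). The order of the highest classes thus differed between the libraries. The counting intervals of these classes did not overlap, but they leave out the spread between cells, and the change of order was not tested. For Dcn the order from the lowest was contractile (0.767 and 2.25), Cluster 3-like (6.16 and 7.59), then Cluster 2-like (65.3) and Cluster 4-like (73.2) in ApoE-/-, and Cluster 4-like (60.4) and Cluster 2-like (83.2) in Trf2T188A/ApoE-/-. Cluster 8-like cells were highest of these classes in both, at 103 and 162.

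In ApoE-/-, still higher Dcn levels came with markers of another cell type. Cluster 12-like cells (21 in ApoE-/-, 1 in Trf2T188A/ApoE-/-) held 144 Dcn and 12.1 Lum in ApoE-/-, and an unnamed cluster of 13 ApoE-/- cells held 150 and 13.2. Of 7 markers of adventitial fibroblasts, all 7 were found in both, with summed levels of 21.0 and 22.4 and Dpt most abundant (9.41 and 9.35). Dpt and Scara5 were also among the markers that gave Cluster 12-like cells their name, so for that class the sum partly repeats the naming. In the same library contractile cells had a sum of 0.428, Cluster 2-like cells 2.89 and Cluster 8-like cells 0.667. A reporter UMI was found in 8 of the 21 Cluster 12-like cells (38.1%) and in 0 of the 13 others, against 91% of ApoE-/- contractile cells. The authors had already limited the plaque data to clusters that expressed the reporter. The part these markers had in the Dcn level was not tested.

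**Figure D1:**
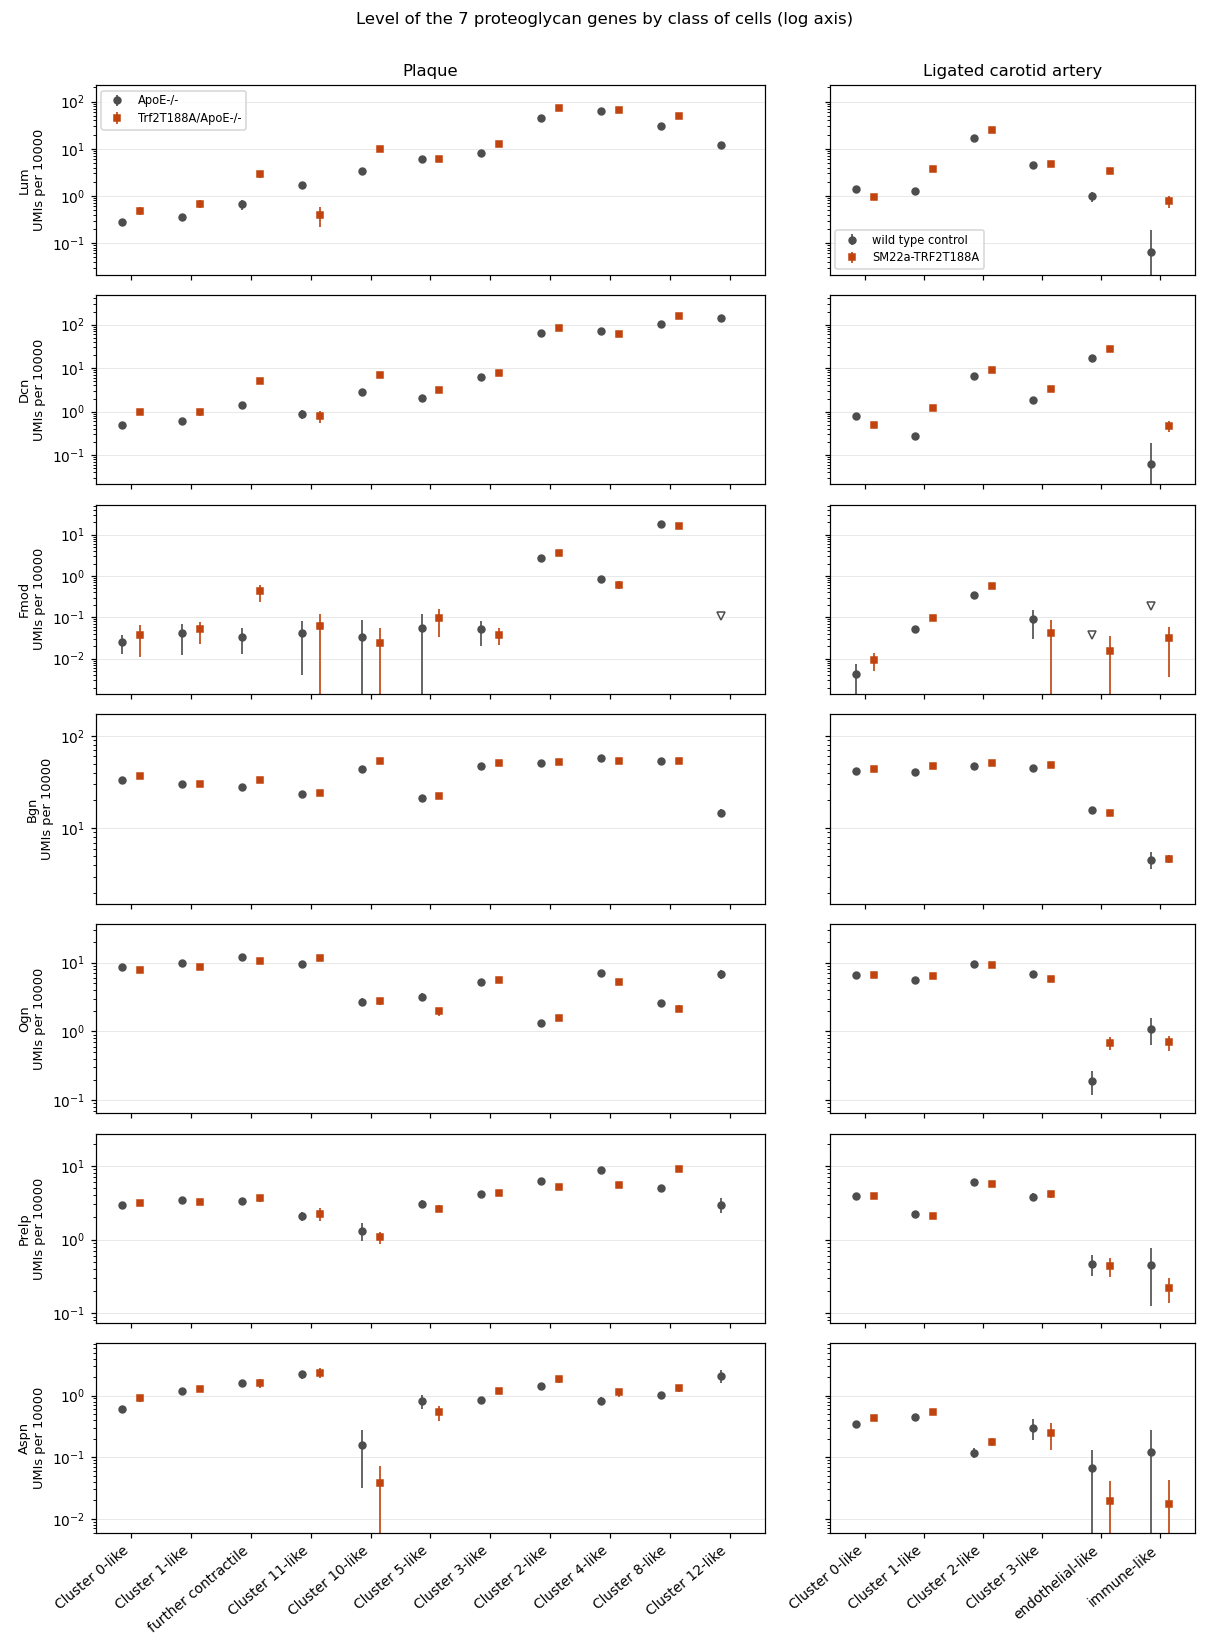
Levels of the 7 SLRP genes (mean UMIs per 10000, log axis) in each class of plaque (left) and ligated carotid (right) cells, with grey circles for the control library, orange squares for the mutant TRF2 library, bars for 95% counting intervals and open triangles for the limit of 3 counts where there was no UMI. Among the ApoE-/- plaque classes drawn (those with 10 or more cells and a name, contractile clusters shown apart) Bgn lay between 14.8 and 57.1, whereas Fmod was at 17.9 in Cluster 8-like cells and at 0.0338 in further contractile cells.

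In ligated carotids Bgn was the highest of the 7 genes in the smooth muscle and immune-like classes. Bgn was between 40.4 and 47.2 in the 4 smooth muscle classes of the wild type control and between 43.3 and 50.6 in those of SM22a-TRF2T188A. It was lower in endothelial-like (15.8 and 14.5) and immune-like cells (4.58 and 4.68). Lum was highest in Cluster 2-like cells, at 17.1 and 24.9, then in Cluster 3-like cells, at 4.43 and 4.74. Cluster 0-like (1.38) and Cluster 1-like (1.26) cells of the wild type control lay close together, with intervals of 1.31 to 1.45 and 1.21 to 1.31 that met at their ends, while SM22a-TRF2T188A had 0.952 and 3.72. Ogn was highest in Cluster 2-like cells here (9.57 and 9.20), unlike in plaque, and so was Prelp (6.05 and 5.70). Fmod stayed under 0.6 in each class, with 0.341 and 0.582 in Cluster 2-like cells as its highest values. Aspn was highest in Cluster 1-like cells (0.448 and 0.546) and lower in Cluster 2-like cells (0.119 and 0.176).

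Decorin alone of the 7 was highest in endothelial-like cells of the ligated carotid. Its level there was 16.8 in wild type control and 27.8 in SM22a-TRF2T188A (1530 and 2785 UMIs), above the 6.75 and 9.07 of Cluster 2-like cells. Lum in the same cells was at 0.977 and 3.32, so the ratio of Dcn to Lum was 17.2 and 8.39, against 0.394 and 0.365 in Cluster 2-like cells. After thinning, 64.9% of wild type control and 35.9% of SM22a-TRF2T188A endothelial-like cells had Dcn without Lum, and 0% and 1.56% had Lum without Dcn. Of the 7 adventitial fibroblast markers 4 were found in each library in these cells, with sums of 0.354 and 0.628, Pi16 most abundant, and Dpt, Scara5 and Dpep1 at 0. Contractile markers summed to 30.4 and 53.4 there (10 of 10 found, Acta2 most abundant), and 10 endothelial markers to 108 and 99.3. The part of either list in the Dcn level was not tested.

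Taken as a pool, the 7 genes differed in make-up between classes. Contractile plaque cells held 46.2 SLRP UMIs per 10000 in ApoE-/- and 50.8 in Trf2T188A/ApoE-/-, of which Bgn was 66.4% and 66.3% and Ogn 21.6% and 17.5%. In Cluster 8-like cells the sum was 213 and 295, with Dcn at 48.1% and 55.0% and Fmod at 8.39% and 5.55%. Cluster 2-like cells (171 and 222) had Lum at 25.8% and 33.8% and Dcn at 38.1% and 37.4%. Bgn made up most of the pool in the 3 large ligation classes, at 76.1% and 77.8% for Cluster 0-like cells, 80.4% and 77.1% for Cluster 1-like cells and 54.2% and 50.5% for Cluster 2-like cells. Endothelial-like cells instead had Dcn at 48.9% and 59.5% and Bgn at 46.1% and 30.9%. Over all cells the sum was 86.7 and 108 in plaque and 59.8 and 65.0 in ligation.

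Lum and Dcn are neighbours on chromosome 10 (GRCm38). Dcn lies at chr10:97479609-97518143 and Lum at chr10:97565128-97572703, both on the plus strand, with 46984 bases and 0 genes listed in the files between them. Kera (chr10:97606879-97613692), which encodes the cornea SLRP keratocan, follows 34175 bases after Lum with 1 listed gene, 4930473O22Rik, in between, and Epyc (chr10:97644068-97682454), which encodes the cartilage SLRP epiphycan, comes next. So 4 SLRP genes stand in a row on the same strand. Within the region only Lum and Dcn were expressed to any extent. Over all cells Dcn was at 22.4 and 30.7 in plaque and 2.10 and 2.61 in ligation, and Lum at 13.0 and 23.2 and at 4.82 and 6.19. Kera had 0 UMIs in both plaque libraries, which allows levels up to 0.000792 in ApoE-/- and 0.00125 in Trf2T188A/ApoE-/-, and the ligation files do not list it. Epyc had 11 UMIs in 4 ApoE-/- cells and 31 UMIs in 1 Trf2T188A/ApoE-/- cell, a Cluster 2-like cell.

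The remaining neighbours of the pair were near 0 as well. The plaque files list 7 besides Kera and Epyc. To the left, Gm48521 had 13 and 17 UMIs, Gm33981 2 and 1, Gm48507 1 and 0, and 4930556N09Rik 0 and 0. On the right, 4930473O22Rik had 1 and 0, Gm10754 0 and 1, and Ccer1 0 and 0 UMIs. In ligation, Ccer1 had 6 UMIs in wild type control and 1 in SM22a-TRF2T188A. The SM22a-TRF2T188A file alone lists 4930473O22Rik (2 UMIs) and Gm48507 (1 UMI), and the wild type control file alone lists Gm6859 (0 UMIs). None was found in 10% of the cells of any large class, so no ratio between genotypes was read for them.

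**Figure D2:**
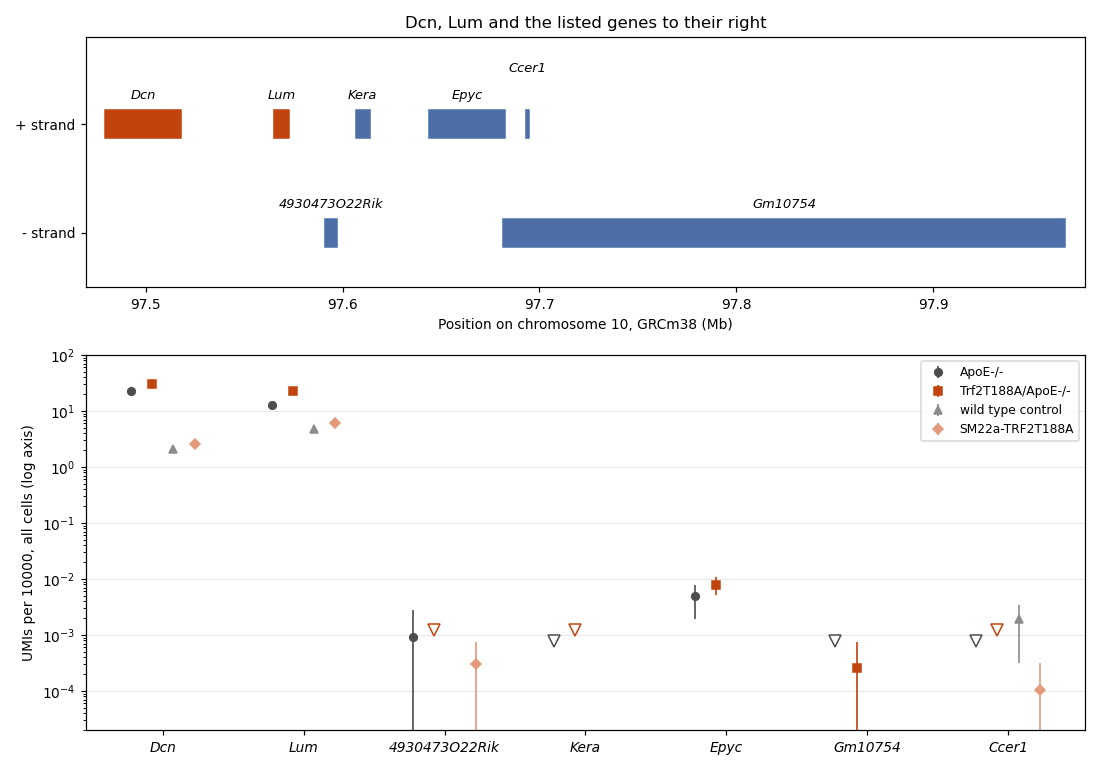
The genes around Dcn and Lum on chromosome 10 of GRCm38, drawn to scale by strand (top), and their levels over all cells of each library that lists them (bottom, mean UMIs per 10000, log axis, open triangles for the limit of 3 counts). Dcn and Lum were above 2 UMIs per 10000 in all 4 libraries and each neighbour was below 0.01.

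Of the other SLRP genes several have SLRP neighbours too. Aspn (chr13:49544443-49567565), Omd (chr13:49582462-49592822) and Ogn (chr13:49608046-49624501) follow each other on chromosome 13 behind Ecm2 (chr13:49504810-49532789). All 4 were expressed in plaque over all cells: Ogn at 7.20 in ApoE-/- and 5.58 in Trf2T188A/ApoE-/-, Ecm2 at 2.07 and 1.71, Aspn at 1.07 and 1.21, and Omd, which encodes the bone SLRP osteomodulin, at 0.846 and 0.713. Their class patterns were not alike, since of the 5 large classes Ogn was highest in contractile cells and Omd in Cluster 8-like cells (11.1 and 5.52, against 0.217 and 0.324 in contractile cells). On chromosome 1, Prelp (chr1:133910304-133921414) has Optc, which encodes opticin, as its neighbour (chr1:133897199-133907999). Optc was at 1.17 and 0.895 in contractile cells and at 0.0275 and 0.00461 in Cluster 8-like cells, while Fmod (chr1:134037254-134048277), farther along on the other strand, showed the reverse. Bgn lies on the X chromosome (chrX:73483602-73495933).

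In the plaque classes with the most Lum and Dcn, single cells mostly carried both. After thinning, a UMI of both was found in 92.1% of ApoE-/- and 91.2% of Trf2T188A/ApoE-/- Cluster 2-like cells, 95.2% and 94.7% of Cluster 4-like cells and 98.7% and 98.3% of Cluster 8-like cells. Cluster 3-like cells were mixed, with both genes in 44.7% and 44.2% and neither in 23.5% and 20.1%. Among contractile cells 6.57% and 13.4% had both. The ratio of the Dcn level to the Lum level was above 1 in several plaque classes, at 1.92 and 1.78 for contractile cells, 1.48 and 1.11 for Cluster 2-like cells and 3.36 and 3.26 for Cluster 8-like cells. It was below 1 in plaque Cluster 3-like (0.749 and 0.606), Cluster 5-like (0.338 and 0.524) and Cluster 10-like cells (0.854 and 0.731), in Cluster 4-like cells of Trf2T188A/ApoE-/- (0.912), in Cluster 11-like cells of ApoE-/- (0.518), and in each smooth muscle class of the ligated carotid, down to 0.221 and 0.325 in Cluster 1-like cells. Which of the neighbours was the more abundant thus differed by class in both experiments.

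Spearman's rho of Lum with Dcn over cells was 0.721 in plaque (2431 cells) and 0.674 in ligation (10359 cells). For the 21 pairs of the 7 genes this was the highest rho in both. Each library alone gave 0.703 and 0.734 in plaque and 0.674 and 0.673 in ligation, and thinned cells 0.739 and 0.631. Within classes, with the cells of both libraries pooled, rho was 0.159 for contractile cells (1046), 0.654 for Cluster 3-like cells (388), 0.6 for Cluster 2-like cells (286), 0.505 for Cluster 4-like cells (187) and 0.403 for Cluster 8-like cells (145). Ligation gave 0.504 for Cluster 0-like cells (4017), 0.533 for Cluster 1-like cells (3922), 0.624 for Cluster 2-like cells (2028) and 0.354 for endothelial-like cells (127). Pooling raised some of these, since each library alone gave 0.266 and 0.278 for Cluster 8-like cells and 0.295 and 0.310 for endothelial-like cells. The lowest pairs were Lum with Ogn in plaque (rho -0.351 over all cells) and, among contractile cells alone, Bgn with Ogn (-0.223, and -0.208 in thinned cells). The highest pair among Cluster 8-like cells of each library alone was Fmod with Bgn (0.470 and 0.490), while in the pooled cells it was Lum with Prelp (0.493), which both differed by genotype. These values describe the cells and carry no p-value, since cells of 1 library are not replicates.

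Over the 22 class-by-library points of plaque, the genes with the pattern most like Lum among 3443 compared were C3 (Pearson's r 0.931), Scara3 (0.916), Dcn (0.901), Lrp1 (0.901) and Tcf4 (0.885). C3 also led the Cluster 4-like cells, and Lrp1 encodes a receptor that takes up decorin. For Dcn they were Tgfbi (0.928), Ly6e (0.922), Clec11a (0.921), Cd34 (0.914) and the matrix protease gene Mmp2 (0.913), with Lum at rank 7. The 12 points of ligation gave other genes. Lum was most like Arf4 (0.957), Fst (0.903), Aig1 (0.893), Smad7 (0.888) and Bag3 (0.875) among 2952 genes, and Dcn most like Cp (0.955), Hnrnph1 (0.943), Zfas1 (0.942), Cd34 (0.938) and Csf1 (0.930). Dcn stood at rank 269 for Lum there (r 0.645). The endothelial-like cells were high in Dcn and not in Lum, and their part in this rank was not tested. Points of 1 library share its depth and preparation.

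The question behind the comparison of genotypes was how the mutant TRF2 in smooth muscle cells goes along with SLRP expression. Ratios between genotypes are log2 of mutant over control after 1 UMI per 10000 was added to each level, and a gene was counted as higher or lower past a limit of 0.25 where one of the libraries had it in 10% or more of its cells. Lum and Dcn were the members most often past the limit. In plaque they were higher in Trf2T188A/ApoE-/- in contractile, Cluster 2-like, Cluster 3-like and Cluster 8-like cells, apart from which Dcn was lower and Lum near even in Cluster 4-like cells. In ligation both were higher in SM22a-TRF2T188A in Cluster 1-like, Cluster 2-like and endothelial-like cells, and both were lower in Cluster 0-like cells. In the small Cluster 3-like class Dcn was higher (1.84 and 3.30, log2 ratio 0.6), with 74.3% of its level in 5 mutant cells, and Lum was near even (0.08). In that class 7.85% of genes at 1 UMI per 10000 or more were higher and 9.28% lower. Its immune markers fell from 7.64 (6 of 10 found, Cd74 most abundant at 4.42) to 0.0205 (2 of 10, with Cd74, H2-Eb1, C1qa and C1qb at 0), while Lyz2, Fcer1g, Tyrobp and Ctss were at 0 in both. Their part was not tested. Immune-like cells, the measure of background, were higher too in SM22a-TRF2T188A, with 1 and 71 UMIs of Lum (0.0642 and 0.766, 0.73) and 1 and 55 of Dcn (0.0642 and 0.476, 0.47), of which 5 cells held 82.3% and 94.3% of the mutant level. Of all genes at 1 UMI per 10000 or more, 20.6% were higher and 28.0% lower in these few cells, so such a ratio was common there. Bgn, the most abundant member, and Aspn passed the limit in none of the 9 classes compared. With 1 UMI added, genes of low level can hardly pass the limit, so the share of all detected genes past it understates that of genes as abundant as most members. Among genes at 1 UMI per 10000 or more the shares higher and lower in plaque were 0.8% and 1.2% for contractile cells, 5.44% and 9.41% for Cluster 2-like cells, 4.93% and 2.32% for Cluster 3-like cells, 8.06% and 5.58% for Cluster 4-like cells, and 15.1% and 9.32% for Cluster 8-like cells. The ligation shares were 3.57% and 0.833% for Cluster 0-like cells, 6.23% and 3.61% for Cluster 1-like cells, 4.85% and 3.58% for Cluster 2-like cells, and 12.4% and 11.8% for endothelial-like cells. Counts from the partner lists are to be read beside the same shares.

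**Figure D3:**
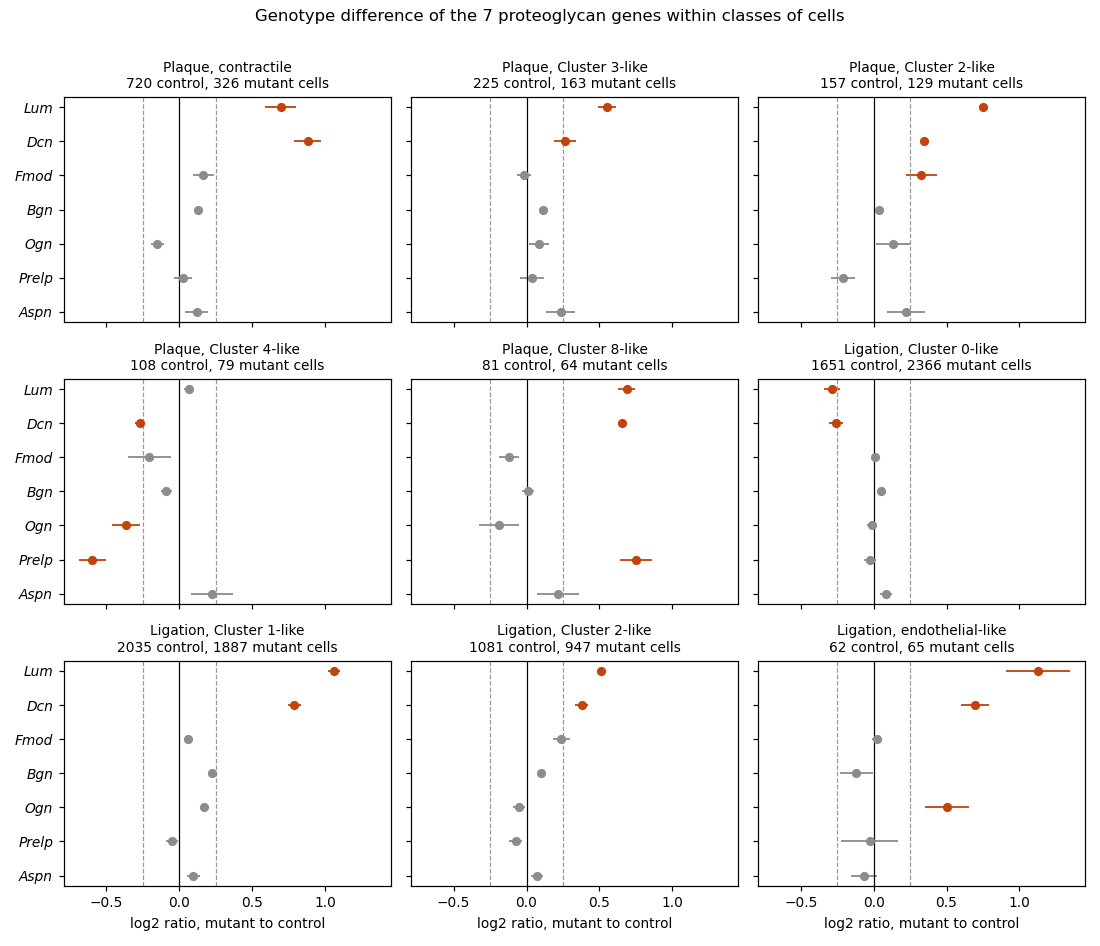
Log2 ratio of the mutant TRF2 library to the control library (horizontal axis, with 1 UMI per 10000 added to each level) for the 7 SLRP genes in 5 plaque and 4 ligation classes. Bars are 95% counting intervals, dashed lines mark 0.25 and -0.25, and orange points lie past them in genes found in at least 10% of cells. Lum ran from 1.13 in ligation endothelial-like cells to -0.29 in ligation Cluster 0-like cells.

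Contractile plaque cells had 0.4 Lum in ApoE-/- and 1.27 in Trf2T188A/ApoE-/- (506 and 516 UMIs), a log2 ratio of 0.70 (95% counting interval 0.59 to 0.80). Dcn was at 0.767 and 2.25 (1023 and 1016 UMIs), a ratio of 0.88 (0.79 to 0.97). The other 5 genes lay between -0.15 (Ogn) and 0.16 (Fmod). With 2 of the 7 higher and 0 lower, the background was 0.198% of 10125 detected genes higher and 0.227% lower, and the median ratio was 0.13 over the 7 genes and -0.00077 over all detected genes. Few cells carried much of this signal. The 5 cells highest in Dcn (a number chosen after the data were seen) held 18.8% of its level in ApoE-/- and 45.9% in Trf2T188A/ApoE-/-, and without them the levels were 0.627 and 1.24. For Lum the shares were 28.9% and 33.1%, and the levels without them 0.286 and 0.861. Among thinned cells the share with a Lum UMI was 16.9% (14.2 to 19.8%) and 28.9% (23.7 to 34.4%), and with a Dcn UMI 31.1% and 38.1%.

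By cluster, the further contractile cells differed most, with Lum at 0.657 and 2.89 (log2 ratio 1.23) and Dcn at 1.43 and 5.19 (1.35). Of these cells 4 of 176 in ApoE-/- and 24 of 98 in Trf2T188A/ApoE-/- were left out by thinning to 8000 UMIs, and the part of such shallow cells in the ratios was not tested for this cluster. Cluster 1-like cells had ratios of 0.32 and 0.28. Cluster 0-like cells had 0.21 for Lum, within the limit, 0.43 for Dcn and 0.25 for Aspn (0.608 and 0.915). Bgn (27.7 and 33.4, 0.26) and Fmod (0.0338 and 0.423, 0.46) also passed the limit in the further contractile cells. Of all genes at a level of 1 or more, 5.61% were higher and 7.03% lower there, against 0.8% and 1.2% in the contractile pool. The contractile ratios moved with the processing: that of Lum was 0.22, within the limit, when cells were thinned before clustering, 0.31 as a difference of mean log2 values, 0.36 from summed UMIs and 1.45 with a pseudocount of 0.1, and that of Dcn was 0.43, 0.30, 0.52 and 1.44. Without cells of fewer than 2000 genes they were 0.59 and 0.81. Immune markers, too, were higher in the Trf2T188A/ApoE-/- contractile cells (summed level 0.155 and 0.405, 10 of 10 found in both, Cd74 most abundant), most of all in the further contractile cells (0.179 and 0.736, with Lyz2 and C1qb most abundant). Their part in the ratios was not tested. Adventitial fibroblast markers summed to 0.428 and 0.492 in contractile cells, with Cd248 most abundant and none at 0.

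Cluster 2-like plaque cells held 44.2 Lum in ApoE-/- and 75.1 in Trf2T188A/ApoE-/-, a log2 ratio of 0.75 (0.72 to 0.78), and the median cell held 32.5 and 64.3. Dcn was at 65.3 and 83.2 (0.34, 0.32 to 0.37), with medians of 45.0 and 50. Fmod was at 2.71 and 3.65 (0.33, 0.22 to 0.44). Prelp was at 6.24 and 5.26 (-0.21), within the limit. Here 3 of the 7 genes were higher and 0 lower, against 1.1% and 1.76% of 11465 detected genes, and the medians were 0.22 over the 7 and -0.013 over all. Of these only Lum held past the limit under all 9 alternatives of processing, with its lowest value of 0.46 at the lower resolution. The Dcn ratio was 0.13 at that resolution and 0.19 as a difference of mean log2 values, and that of Fmod was past the limit in 4 of 9 and turned to -0.18 in cells thinned before clustering. Adventitial fibroblast markers summed to 2.89 and 3.34 in these cells (7 of 7 found, Dpt most abundant). Contractile markers fell from 68.2 to 49.3 (10 of 10 found, Acta2 most abundant at 25.5 and 18.3), and a reporter UMI was found in 80.3% and 73.6% of cells. The part of these in the ratios was not tested.

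Cluster 8-like cells, the cartilage-like class, showed the steadiest differences. Lum was at 30.5 and 49.7 (log2 ratio 0.69, 0.63 to 0.74), Dcn at 103 and 162 (0.66, 0.63 to 0.68) and Prelp at 5.02 and 9.14 (0.75, 0.64 to 0.86). Fmod (-0.12), Ogn (-0.19), Bgn and Aspn stayed within the limit. The count of 3 higher and 0 lower stood beside a background of 2.9% higher and 1.98% lower of 11164 detected genes, and the medians were 0.22 and -0.00070. All 3 ratios stayed past the limit under all 9 alternatives: 0.50 to 0.75 for Lum, 0.60 to 0.77 for Dcn and 0.51 to 0.85 for Prelp. Most alternatives hardly changed the size of this class. It held 81 and 64 cells with all variable genes kept and at the lower resolution, as in the main setting. Thinning before clustering gave 90 and 76. The steadiness says nothing about other libraries. Adventitial fibroblast markers were at 0.667 and 1.87 (7 of 7 found, Pdgfra most abundant at 0.254 and 0.726), and a reporter UMI was found in 61.7% and 81.3% of cells. Schwann cell markers summed to 1.85 and 2.30 (5 and 6 of 6 found, S100b most abundant at 1.64 and 2.04, Sox10 at 0 in ApoE-/-). The part of these in the ratios was not tested.

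Cluster 3-like cells had Lum at 8.23 and 12.5 (log2 ratio 0.55, 0.49 to 0.62) and Dcn at 6.16 and 7.59 (0.26, 0.19 to 0.34). The 2 higher and 0 lower of 6 members detected compare with 0.889% and 0.435% of 10794 detected genes. The medians over detected genes were 0.17 for members and -0.0026 for all, and over all 7 members the median was 0.12. Neither ratio was stable, since without cells of fewer than 2000 genes that of Lum was -0.0030 and that of Dcn -0.31. Immune markers summed to 0.979 and 1.94 in this class, with Cd74 most abundant and none at 0, and their part was not tested.

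Cluster 4-like cells went the other way. Prelp was at 8.76 in ApoE-/- and 5.45 in Trf2T188A/ApoE-/- (log2 ratio -0.60, -0.69 to -0.50), Ogn at 7.15 and 5.32 (-0.37, -0.46 to -0.27) and Dcn at 73.2 and 60.4 (-0.27, -0.30 to -0.24), while Lum was at 63.3 and 66.2 (0.06). Thus 0 of the 7 were higher and 3 lower, beside 1.74% higher and 1.19% lower of 11652 detected genes, and the medians were -0.21 and 0.0032. The Prelp ratio was past the limit under all 8 alternatives that gave this class, from -0.67 to -0.40. The ratio of Ogn was within the limit from summed UMIs (-0.10), and that of Dcn in 5 of 8, with 0.06 in cells thinned before clustering. Immune markers were at 2.15 and 3.38 here (Cd74 most abundant, Fcer1g at 0 in ApoE-/-). Contractile markers were at 77.8 and 92.2 (10 of 10 found, Acta2 most abundant at 24.5 and 32.3). The part of either list in the ratios was not tested.

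The smaller plaque classes differed among themselves. Cluster 10-like cells had Lum at 3.31 and 9.71 and Dcn at 2.82 and 7.10, log2 ratios of 1.31 and 1.08, but the 5 highest cells held 91.1% and 62.0% of the Lum level, and 1 ApoE-/- cell held most of it. In Cluster 11-like cells Lum was at 1.72 and 0.4 (-0.96), with 90.6% of the former in 5 cells, and the ratio of Dcn was -0.07. This class was not in the contractile pool, though its contractile markers summed to 420 and 489, against 480 and 489 in the pool. Cluster 5-like cells (80 and 100) had a ratio of 0.45 for Dcn and -0.51 for Ogn, with Lum near even at 6.08 and 6.06. There 11% of genes at 1 UMI per 10000 or more were higher and 14.7% lower, contractile markers were at 155 and 123 (10 of 10 found, Acta2 most abundant), and immune markers at 0.203 and 0.689 (6 and 10 of 10, Cd74 most abundant, with H2-Eb1, H2-Aa, Lyz2 and Ctss at 0 in ApoE-/-). Their part was not tested. Bgn passed the limit in Cluster 10-like cells (43.3 and 53.1, 0.29). Among all genes at a level of 1 or more, that class had 11% higher and 15.3% lower. The Cluster 11-like class had 9.94% higher and 11.8% lower.

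Cluster 1-like cells of the ligated carotid differed in Lum and Dcn. Lum was at 1.26 in wild type control and 3.72 in SM22a-TRF2T188A (2798 and 8541 UMIs), a log2 ratio of 1.06 (1.02 to 1.1). Dcn was at 0.279 and 1.21 (0.79, 0.74 to 0.83). Bgn (0.22) and Ogn (0.17) were higher within the limit. Beside the 2 higher and 0 lower of 6 members detected, 1.48% of 8016 detected genes were higher and 0.811% lower, and the medians over detected genes were 0.20 and -0.0086. Thinned to 5000 UMIs, 14.5% (12.9 to 16.1%) and 32.3% (30.1 to 34.5%) of cells had a Lum UMI and 6.82% and 17% a Dcn UMI, against 7.14% (0.181 to 33.9%) and 17.4% (7.82 to 31.4%) of immune-like cells for Lum and 0% and 10.9% for Dcn. The median depth of the Cluster 1-like cells was 8733 and 10857 UMIs. The shares of Dcn in both libraries and that of Lum in wild type control lay inside the wide intervals of the few immune-like cells (0 to 23.2% and 3.62 to 23.6% for Dcn), so by these shares they cannot be told from background. That of Lum in SM22a-TRF2T188A lay above the interval of its immune-like cells, though the intervals overlapped. In level, wild type control had 1.26 Lum and 0.279 Dcn in Cluster 1-like cells, against 0.0642 of each (1 UMI) in immune-like cells. SM22a-TRF2T188A had 3.72 and 1.21, against 0.766 and 0.476. Whether free RNA gave the Cluster 1-like counts was not tested. The 5 highest cells held 9.53% and 6.22% of the Lum level. Markers of other cells were found in both libraries: immune markers summed to 0.361 and 0.15 (10 of 10, Cd74 most abundant) and endothelial markers to 0.589 and 0.895 (10 of 10, Edn1 most abundant). Adventitial fibroblast markers summed to 0.757 and 0.818 (5 of 7 in each, Cd248 most abundant), with Pi16 and Scara5 at 0 in wild type control and Scara5 and Dpep1 in SM22a-TRF2T188A. Their part in the ratios was not tested for this class. Ratios stayed past the limit in all 9 alternatives, but at the higher resolution, where the class held 1034 and 963 cells, they were 0.39 for Lum and 0.51 for Dcn. As a difference of mean log2 values they were 0.61 and 0.30, and with a pseudocount of 0.1 that of Dcn was 1.79.

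Cluster 2-like ligation cells, named partly for matrix genes, held 17.1 and 24.9 Lum (log2 ratio 0.51, 0.48 to 0.54) and 6.75 and 9.07 Dcn (0.38, 0.33 to 0.42). The median cell held 10.3 and 16.2 Lum, so the difference was not that of a few cells. Fmod was at 0.341 and 0.582 (0.24), just within the limit. The count was 2 higher and 0 lower, with 1.14% and 0.735% of 8304 detected genes as background and medians of 0.098 and -0.0033. At the lower resolution, where this class held 2756 and 3332 cells and no Cluster 0-like class was left, the ratios were 0.02 and -0.07. Adventitial fibroblast markers summed to 1.36 and 1.56 (6 and 4 of 7 found, Cd248 most abundant, Clec3b at 0 in wild type control and Pi16, Scara5 and Dpep1 at 0 in SM22a-TRF2T188A). Immune markers summed to 0.0915 and 0.199 (10 and 9 of 10 found, Cd74 most abundant, Tyrobp at 0 in SM22a-TRF2T188A). Endothelial markers were at 1.29 and 1.61 (8 and 10 of 10, Edn1 most abundant, Cdh5 and Cldn5 at 0 in wild type control). Contractile markers were at 225 and 207 (10 of 10, Acta2 most abundant). Their part was not tested.

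Cluster 0-like ligation cells had less of both genes in the mutant. Lum was at 1.38 and 0.952 (log2 ratio -0.29, -0.34 to -0.23) and Dcn at 0.785 and 0.492 (-0.26, -0.31 to -0.21). So 0 of the 6 members detected were higher and 2 lower, beside 0.818% and 0.18% of 8317 detected genes. The medians over detected genes were -0.02 for members and -0.00095 for all. After thinning, 18.6% and 13.5% of these cells had a Lum UMI and 13.6% and 10% a Dcn UMI. In SM22a-TRF2T188A both shares were at or below those of its 46 thinned immune-like cells. Both wild type control shares lay inside the wide intervals of its 14 thinned immune-like cells. With so few immune-like cells, these shares cannot decide whether the counts stand above background. In level, wild type control had 1.38 Lum and 0.785 Dcn here, against 0.0642 of each (1 UMI) in its immune-like cells. Against 0.766 and 0.476 in its immune-like cells, SM22a-TRF2T188A had 0.952 and 0.492 in Cluster 0-like cells. Lum and Dcn went together over the cells, with a rho of 0.569 and 0.447 in each library alone (0.525 and 0.424 in thinned cells), and 9.03% and 5.42% of thinned cells had both. Whether free RNA gave these counts was not tested. Each ratio was within the limit in 4 of 8 alternatives, and that of Lum was -0.0044 in cells thinned before clustering.

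Endothelial-like ligation cells, few in number, had Lum at 0.977 and 3.32 (log2 ratio 1.13, 0.90 to 1.35), Dcn at 16.8 and 27.8 (0.70, 0.60 to 0.79) and Ogn at 0.193 and 0.691 (0.50, 0.35 to 0.65; 31 and 100 UMIs). The background was 3.58% higher and 4.32% lower of 9478 detected genes, against 3 higher and 0 lower of the 5 members detected. The medians over detected genes were 0.50 for members and -0.010 for all, but over all 7 members the median was 0.021. The 5 highest cells held 66.2% and 38.4% of Lum and 32.0% and 30.6% of Dcn, and without them Lum was at 0.359 and 2.21 and Dcn at 12.4 and 20.9. A Lum UMI was found in 21.1% and 45.3% of thinned cells, the former inside the interval of the wild type control immune-like cells. The ratio of Ogn was 0.14 without the cells of the highest doublet scores and 1.43 with a pseudocount of 0.1. Contractile markers were higher in the mutant cells (30.4 and 53.4) and immune markers lower (18 and 8.81, Cd74 most abundant, 6 and 4 of 10 found, with C1qa, C1qb, Fcer1g and Tyrobp at 0 in both and Lyz2 and Ctss at 0 in SM22a-TRF2T188A), and their part was not tested.

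Over all cells of a library, Lum was higher by 10.2 UMIs per 10000 in Trf2T188A/ApoE-/- than in ApoE-/-. Of this, 3.88 went with the larger shares of SLRP-rich classes and 6.34 with the levels inside classes. For Dcn the difference of 8.26 was made up of 3.23 and 5.02. That of Fmod (0.404) lay mostly in the class shares (0.347), and Ogn, lower by -1.62, in both (-0.956 and -0.660). Contractile cells made up 47.9% of ApoE-/- and 35.1% of Trf2T188A/ApoE-/- cells, and Cluster 2-like cells 10.5% and 13.9%. In ligation the parts had opposite signs, with a Lum difference of 1.37 made up of -0.955 from class shares and 2.33 from levels inside classes.

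Other members of the SLRP family were compared as well. The list held 11 genes, all in the plaque files and 9 in ligation. Chad, which encodes the cartilage protein chondroadherin, was at 30.9 in ApoE-/- and 17.9 in Trf2T188A/ApoE-/- Cluster 8-like cells (log2 ratio -0.75), and Omd at 11.1 and 5.52 (-0.89, -0.98 to -0.80). These 2 of the 6 detected genes were lower in a class where Lum and Dcn were higher, and no other passed the limit there. In Cluster 2-like cells Omd (0.370 and 0.948, 0.51) and Chad (0.791 and 1.71, 0.60) were higher, and in Cluster 4-like cells Chad was lower (0.543 and 0.296, -0.25). No gene of the list passed the limit in contractile or Cluster 3-like cells or in the 3 large ligation classes and endothelial-like cells, where 4, 5, 4, 4, 4 and 1 were detected. Over all listed genes the median came to 0.020 for Cluster 2-like cells and -0.010 for Cluster 8-like cells.

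Enzymes that build the sugar chains were compared as well, most of them genes of low level, which can hardly pass the limit. Of 23 genes for chondroitin and dermatan sulphate synthesis (22 in the ligation files), 19 were detected in contractile and 20 in Cluster 3-like cells with 0 past the limit. Chsy1, a chondroitin synthase gene, was higher in Cluster 2-like cells (0.959 and 1.38, log2 ratio 0.28). Chsy3 (0.621 and 1.24, 0.47) and Xylt1, which starts the chain (0.187 and 0.464, 0.30), were higher in Cluster 4-like cells, and Xylt1 was lower in Cluster 8-like cells (9.13 and 7.28, -0.29). None of 15 or 16 detected passed in the ligation classes. The summed level of the list was highest in Cluster 8-like cells, at 20.8 and 18.3, against 5.67 and 5.96 in contractile cells. Keratan sulphate genes, 7 of 8 listed, were scarce, with sums from 0.433 to 1.52 in the 9 classes compared, and 0 passed the limit. B4galt1 was the most abundant of them, at 0.499 and 0.502 in contractile cells.

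Collagens are the ligands of most SLRPs. The list held 13 fibrillar and fibril-associated genes. In ligation Cluster 1-like cells 5 of 12 detected were higher and 0 lower, led by Col3a1 (18.8 and 31.9, log2 ratio 0.73), Col1a1 (10.5 and 16.0, 0.57) and the crosslinking enzyme gene Lox (4.24 and 6.56, 0.53). Cluster 2-like cells had 4 higher and 0 lower, among them Col1a1 (19.5 and 28.2, 0.51) and Col3a1 (20.5 and 29.4, 0.50), with a median of 0.14 over the listed genes. Endothelial-like cells had 3 higher and 1 lower of 11, and Cluster 0-like cells 0 and 0 of 12. In plaque Cluster 2-like cells, rich in Lum, 0 were higher and 3 of 13 lower, including Col6a3 (8.41 and 6.28, -0.37), and Col1a1 was at 62.8 and 65.6 (0.06). Cluster 8-like cells were divided, with Col3a1 higher (31.2 and 47.0, 0.58) and Col1a1 (119 and 76.9, -0.63) and Col1a2 (120 and 80.7, -0.57) lower, 3 and 4 of 12 in all. Cluster 4-like cells had 6 higher and 1 lower, led by Col5a2 (5.01 and 7.16, 0.44), where Dcn was lower. Contractile cells had 1 of 12 higher, Col1a1 (4.32 and 5.64, 0.32), and Cluster 3-like cells 2, Lox (3.43 and 4.33, 0.27) and Col1a2 (11.2 and 13.6, 0.25).

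Receptor genes for SLRPs, 11 in the list, rarely passed the limit. Lrp1 was higher in Cluster 2-like (5.96 and 7.39, log2 ratio 0.27) and Cluster 8-like plaque cells (6.56 and 8.87, 0.38), and Tlr2, an innate immune receptor that senses biglycan, in Cluster 8-like cells (0.843 and 1.77, 0.59). Itga2 was higher in Cluster 4-like cells (0.0853 and 0.339, 0.30), while Kdr, a receptor bound by decorin, was lower in endothelial-like cells (0.748 and 0.287, -0.44), as was Igf1r (-0.28). In contractile and Cluster 3-like plaque cells and in the 3 large ligation classes 0 passed. Itgb1 had the highest level, at 17.8 and 18.6 in contractile cells.

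Proteases that cut or mature SLRPs, 13 genes, stood out for Mmp3, the stromelysin gene. It was at 0.84 in ApoE-/- and 5.17 in Trf2T188A/ApoE-/- Cluster 2-like cells (log2 ratio 1.74, 1.66 to 1.83) and at 0.426 and 2.08 in Cluster 8-like cells (1.11). It was lower in Cluster 4-like (4.01 and 2.09, -0.70) and Cluster 3-like cells (0.49 and 0.102, -0.44). Mmp2 was higher in plaque Cluster 2-like (2.93 and 4.17, 0.40), ligation Cluster 1-like (1.06 and 1.58, 0.32) and ligation Cluster 2-like cells (1.58 and 2.30, 0.35), and lower in plaque Cluster 8-like cells (5.10 and 3.93, -0.31). Htra1 was higher in Cluster 2-like (5.57 and 6.94, 0.27) and Cluster 8-like cells (2.80 and 4.65, 0.57). Counts higher and lower were 3 and 0 among 8 detected genes for Cluster 2-like cells, 2 and 2 among 7 for Cluster 8-like cells, 0 and 2 among 8 for Cluster 4-like cells, and 0 and 1 among 8 for Cluster 3-like cells. Contractile and ligation Cluster 0-like cells had 0 and 0 of 7 and of 6, ligation Cluster 1-like cells 1 and 0 of 6, Cluster 2-like cells 2 and 0 of 6, and endothelial-like cells 1 and 1 of 7.

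Promoter sequences of 5 members (Fmod, Bgn, Ogn, Prelp and Aspn) were matched in the promoter table used here (RefSeq, GRCm38.p6), and those of Lum and Dcn were not analysed here. Those of Bgn, Ogn and Fmod are shown because their class patterns differed most among the 5, broad, contractile-high and Cluster 8-high, a choice made after the values were seen. Each runs from 250 bases before to 50 bases after the start that RefSeq gives for the gene, on the plus strand. For Bgn and Ogn that start is not the one of the coordinates given above, which come from another annotation (GENCODE), and positions are counted from the RefSeq start. Capitals mark matches on either strand to the TATA box (TATAAA), the GC box (GGGCGG), the AP-1 site (TGANTCA) and the Smad site (CAGAC).
Bgn: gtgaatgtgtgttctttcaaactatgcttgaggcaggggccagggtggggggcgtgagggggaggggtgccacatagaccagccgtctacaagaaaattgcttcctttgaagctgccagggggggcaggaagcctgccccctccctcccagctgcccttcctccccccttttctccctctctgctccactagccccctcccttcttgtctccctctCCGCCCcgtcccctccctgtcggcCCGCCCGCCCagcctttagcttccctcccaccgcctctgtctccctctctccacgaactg
Ogn: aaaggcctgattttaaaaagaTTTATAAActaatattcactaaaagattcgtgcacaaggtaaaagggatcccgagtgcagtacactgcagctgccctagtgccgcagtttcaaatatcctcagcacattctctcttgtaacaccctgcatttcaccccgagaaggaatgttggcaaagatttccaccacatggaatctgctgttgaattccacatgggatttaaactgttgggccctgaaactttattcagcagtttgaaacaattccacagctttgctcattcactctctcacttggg
Fmod: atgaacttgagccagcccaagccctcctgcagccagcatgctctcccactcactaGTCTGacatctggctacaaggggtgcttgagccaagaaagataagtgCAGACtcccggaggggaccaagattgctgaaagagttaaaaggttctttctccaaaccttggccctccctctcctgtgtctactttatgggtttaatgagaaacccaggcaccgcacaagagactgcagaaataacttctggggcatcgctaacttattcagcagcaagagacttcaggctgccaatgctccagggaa
The windows are chrX:73483351-73483650 for Bgn, chr13:49607765-49608064 for Ogn and chr1:134037004-134037303 for Fmod. Bgn held GGGCGG at -34, -10 and -6 from the start, all on the minus strand, and 63.7% G or C. Ogn held TATAAA at -229 on the minus and -227 on the plus strand, matches that share letters, with 42.3% G or C, and Fmod held CAGAC at -195 on the minus and -148 on the plus strand, with 51% G or C. Prelp held 3 matches to CAGAC and Aspn 2 to TATAAA. No TGANTCA and no CArG box, a motif of smooth muscle genes, was present in the 5 windows. Among 32851 promoters of the same length the shares with a match were 13.6% for TATAAA, 35.7% for GGGCGG, 7.81% for TGANTCA, 49.6% for CAGAC and 1.63% for the CArG box.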

How the data were processed

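The deposited signal was the count table of each library after the authors' filters, with UMIs scaled by the authors so that each cell sums to 10000. Multiplied back to whole UMIs, 100% of values were whole within 0.01. Upstream, the authors mapped to GRCm38 with Cell Ranger 6.1.2 (ligation) and 7.0.0 (plaque). Cells were clustered with Seurat 5.3.0 in R 4.3.3, each experiment apart, with 86 SLRP and partner genes left out of the variable genes, and ligation was joined over 29459 genes. A cluster took the name of the study cluster whose marker genes averaged 0.5 or more in log2 ratio, with 3 or more of them past that value, limits set with the data known. The rest ran in Python 3.11.15 with scanpy 1.11.5, pandas 2.3.3, scipy 1.17.1 and numpy 2.4.6. Scrublet scores called 0, 3, 1 and 0 doublets, and the cells stayed in. The 7 genes and the partner lists were chosen with earlier results of these data known. Genes named from a list were those past the limit, those with the highest level, and others chosen after their values were seen. A count test needs replicate libraries and was not possible with 1 per group. The alternatives were a pseudocount of 0.1, the difference of mean log2 values, the ratio of summed UMIs, all variable genes kept, a lower and a higher resolution, cells thinned to 8000 (plaque) or 5000 (ligation) UMIs before clustering, leaving out the cells with the highest doublet scores, and leaving out cells under 2000 genes. Steps were tried on simulated data first. Lists of lymphocyte, red blood cell and adipocyte markers summed to at most 0.0176 UMIs per 10000 over all cells of any library. Amino acid sequences were not used here.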

Additional observations from a re-analysis of the deposited data

Results flagged for a closer look

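Lum and Dcn differed in opposite directions between the genotypes in the main contractile cells of plaque and in Cluster 0-like cells of the ligated carotid. The log2 ratio of mutant to control was 0.70 for Lum in plaque contractile cells and -0.29 in ligation Cluster 0-like cells. For Dcn it was 0.88 and -0.26. Contractile markers summed to 440 in wild type control and 463 in SM22a-TRF2T188A Cluster 0-like cells, and to 523 and 528 in Cluster 1-like cells of the ligated carotid. In those Cluster 1-like cells Lum (1.06) and Dcn (0.79) were higher in the mutant, as in plaque contractile cells. The opposite directions thus hold for Cluster 0-like cells only. In Cluster 0-like cells the shares of cells with a UMI could not be told from those of immune-like cells, the measure of background. Only 14 wild type control and 46 SM22a-TRF2T188A immune-like cells were left after thinning, too few for these shares to decide. Each ratio in Cluster 0-like cells was within the limit of 0.25 in 4 of 8 alternatives, with Lum at -0.0044 in cells thinned before clustering. The plaque ratio of Lum was 0.22 in cells thinned that way. In level, wild type control had 1.38 Lum and 0.785 Dcn in Cluster 0-like cells, against 0.0642 of each (1 UMI) in immune-like cells. SM22a-TRF2T188A had 0.952 Lum and 0.492 Dcn in Cluster 0-like cells, against 0.766 and 0.476 in immune-like cells. Each experiment has 1 library per genotype, and the difference between the experiments was not tested.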

How the results depend on the processing

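Of 22 log2 ratios past the limit, with 193 values under the alternatives, 187 kept their direction and 158 stayed past the limit. The median over the 7 genes had 79 alternative values. Of these, 54 stayed within the counting interval of the gene in the middle of the 7 in the main setting. The other 25 moved outside it, changes of sign among them. The main median over all 7 genes was 0.12 in plaque Cluster 3-like, 0.17 in ligation Cluster 1-like and 0.021 in endothelial-like cells. In ligation Cluster 0-like cells it was -0.015. These differ from the medians over detected members given for those classes above. With a pseudocount of 0.1 the median was 0.21 in plaque contractile, 0.37 in plaque Cluster 8-like, 0.24 in ligation Cluster 1-like, 0.33 in ligation Cluster 2-like and 0.20 in endothelial-like cells. As a difference of mean log2 values it was 0.086 in contractile, 0.021 in ligation Cluster 0-like and 0.23 in ligation Cluster 1-like cells. From summed UMIs it was 0.0995 in contractile and 0.073 in Cluster 3-like plaque cells. With all variable genes kept it was 0.17 in contractile, 0.040 in Cluster 2-like and -0.043 in Cluster 4-like plaque cells. At the lower resolution it was 0.083 in plaque Cluster 3-like and 0.023 in ligation Cluster 2-like cells, where Dcn turned to -0.067. At the higher resolution it was 0.16 in contractile, 0.15 in plaque Cluster 3-like and 0.087 in ligation Cluster 1-like cells. With cells thinned before clustering it was 0.10 in contractile, 0.0031 in Cluster 3-like, 0.047 in Cluster 4-like and 0.43 in Cluster 8-like plaque cells and 0.10 in endothelial-like cells, and the ratio turned to -0.18 for Fmod in Cluster 2-like, -0.47 for Dcn in Cluster 3-like and 0.059 for Dcn in Cluster 4-like cells. Without the highest doublet scores it was 0.051 in plaque Cluster 2-like cells. Without cells under 2000 genes it was 0.042 in plaque Cluster 3-like cells, where Lum turned to -0.0030 and Dcn to -0.31. In each case the cause was not tested. The lower resolution gave no plaque Cluster 4-like and no ligation Cluster 0-like class. Spearman's rho of Lum with Dcn was above 0 in 64 of 64 alternative values over all cells and the 9 classes compared. Of these values 45 lay more than 0.1 from the main value. The rho was -0.024 in the 100 plaque Cluster 1-like cells of Trf2T188A/ApoE-/-. When cells were thinned, 81 of 126 shares of cells with a UMI moved. No paired analysis was possible because each group had 1 library. Genes with few UMIs, such as Fmod outside Cluster 8-like and Cluster 2-like cells, were limited by depth.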
